A study of Mus musculus with 24 samples.

Results

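Collagens are the proteins of the extracellular matrix that wind 3 chains around each other into a triple helix, which needs a glycine at the start of each triplet of residues. The genes described here are the 44 of 55450 genes in the count table whose symbol has the form of a collagen chain (Col, a type number, the letter a and a chain number). The rule goes by name and uses no measured value, but it was set with earlier results of these data known. By textbook classes, 11 are fibrillar chains and 33 are others. The fibrillar chains form the banded fibrils of connective tissue, as types I, III and V do. Among the others, type IV chains build the network of basement membranes, the thin sheets under epithelium and around vessels, and type VI chains form beaded filaments close to cells. FACIT chains (fibril-associated collagens with interrupted triple helices) lie on fibril surfaces. In liver, stellate cells and portal fibroblasts are the known makers of fibrillar collagen. In testis, Sertoli and peritubular cells make the tubule's basement membrane, and in brain the fibrillar chains are mainly a feature of meninges and vessels.

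RNA came from cerebellum, liver and testes of wild-type mice (WT) and of mice in which Thumpd1 was knocked out (KO) by Cas9 editing with guides against exons 1 and 4 in C57BL/6N eggs, and the mice were kept on a C57/BL6 background. Thumpd1 encodes an RNA-binding partner that the acetyltransferase Nat10 needs to place N4-acetylcytidine on leucine and serine tRNAs. The animals were 6 to 12 weeks old, untreated and kept in 12 h of light, with littermates of the same age as controls, and the deletion is carried in every cell. Several edited lines were made, and which line gave these libraries is not stated in the sources used here. Each tissue had 4 WT libraries, numbered 1 to 4, and 4 KO libraries, numbered 5 to 8, or 24 in all. The study describes the libraries of a group as biological replicates, and the labels do not tie them to animals.

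Defining markers were present in the tissue the labels name. The granule neuron markers summed to 6148 to 6410 CPM in WT cerebellum and to at most 14.5 in WT liver and testes. The hepatocyte markers summed to 52369 to 68998 CPM in WT liver and to at most 971 elsewhere in WT. The elongating spermatid markers summed to 12823 to 13450 CPM in WT testes and to at most 0.162 elsewhere in WT. Total counts lay between 16353797 and 37889615 per library. Thumpd1 itself stood at 21.8 to 24.02 CPM, the counts scaled to a common library total, in the WT cerebellum libraries, where KO libraries held 0 to 2 counts. WT liver libraries stood at 9.19 to 10.1 CPM, with 0 to 4 counts in KO. WT testes libraries stood at 24.3 to 26.3 CPM, with 23 to 41 counts in KO. In 6 of 6 groups the pair of libraries closest in counts had neighbouring numbers (1 and 2, 3 and 4, 5 and 6, or 7 and 8). This did not hold for all neighbours, and WT 3 and WT 4 of liver were the least alike of all 36 pairs within groups. Every pair differed by more than sampling noise (mean chi-square per gene 2.31 to 346, where noise alone gives 1). When neighbours were summed, leaving 2 samples against 2, limma-voom called no collagen gene in any tissue. At an unadjusted p under 0.05, liver then had 1 higher and 6 lower, testes 5 and 5, and cerebellum 11 and 3. Over all genes 47, 11 and 2 were called in that setting, in the order cerebellum, liver, testes. This setting was added after the data had been seen.

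A gene was tested in a tissue when at least 4 of its 8 libraries reached 1 CPM, and called when its Benjamini-Hochberg adjusted p was under 0.05 in limma-voom over all genes tested there. Liver kept 21 of the 44 collagen genes, cerebellum 36 and testes 41. Of the 44, 20 were tested in 3 tissues, 15 in 2, 8 in 1 and Col10a1, a growth plate cartilage chain, in none. No member passed through libraries of 1 genotype alone.

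The calls on collagen genes in KO were mostly lower in liver, mostly higher in cerebellum and went both ways in testes. In liver 6 of 21 were called lower and 1 higher, while 3.12% of all 12816 genes tested there were called lower and 2.79% were called higher. In cerebellum 5 of 36 were called higher and 2 lower, beside 3.93% and 2.51% of 16225 genes. In testes 6 of 41 were called higher and 5 lower, beside 9.74% and 10.7% of 19329 genes. The testes shares are near those of all genes and are not a result about the collagen genes as a group. Among fibrillar chains the calls were 3 lower of 7 tested in liver, 2 higher of 11 in testes, and 3 higher with 2 lower of 10 in cerebellum. Among the other chains they were 1 higher and 3 lower of 14 in liver, 4 higher and 5 lower of 30 in testes, and 2 higher of 26 in cerebellum. The median log2 change of the fibrillar chains was -0.45 in liver, 0.15 in testes and 0.12 in cerebellum, and that of the others -0.11, 0.06 and 0.04. With 1 library left out, the testes median ranged from 0.061 (without KO 8) to 0.21 for the fibrillar chains and from -0.032 (without KO 7) to 0.16 for the others. In cerebellum it ranged from 0.078 (without KO 5) to 0.13 for the fibrillar chains and from -0.0048 (without KO 7) to 0.21 (without WT 2) for the others, and in liver from -0.52 to -0.38 and from -0.16 to -0.080. Over all genes tested it lay within 0.01 of 0 in each tissue.

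**Figure D1:**
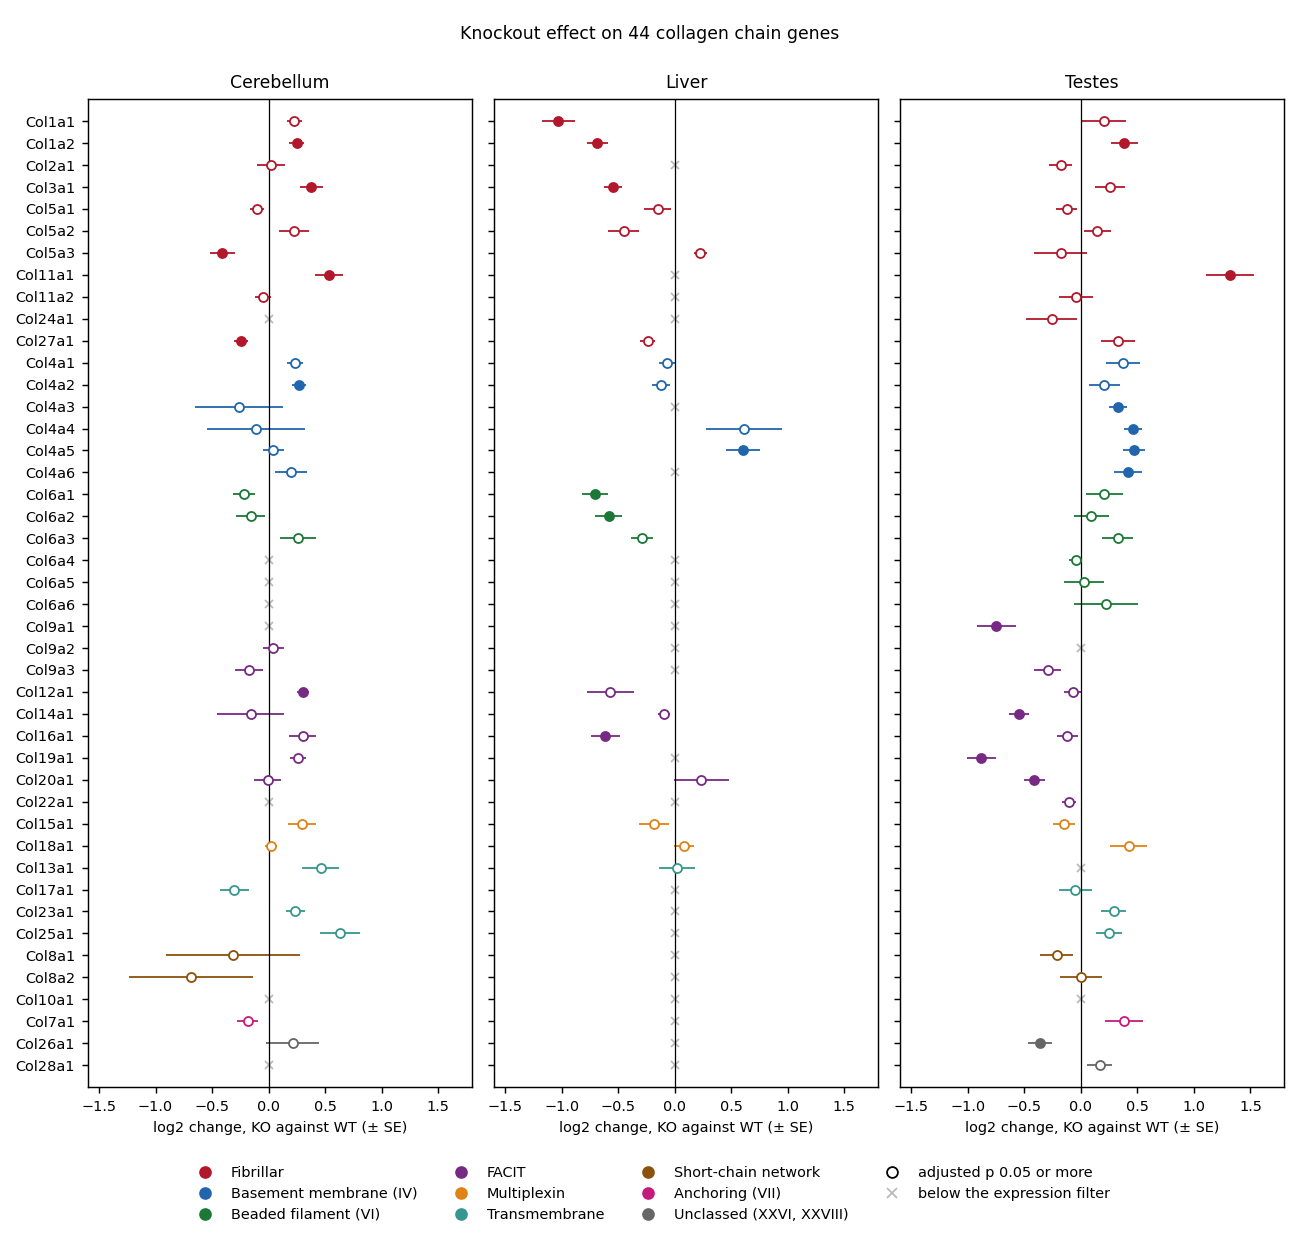
Log2 change of KO against WT with its standard error (horizontal axis) for each of the 44 collagen genes (rows, coloured by class) in 3 tissues. Filled circles are called genes, open circles are tested genes that were not called and grey crosses are genes below the expression limit. The filled fibrillar and type VI circles lie left of 0 in liver, and in testes the 6 type IV chains lie right of 0 and the 8 tested FACIT chains left of it.

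In WT the tissues differed in which chain was most abundant. Per kilobase of exon, Col18a1, the chain whose end is released as endostatin, was first in liver at 201 ± 14.4 CPM per kb (SD, n = 4). The next was the fibrillar chain Col5a3 at 11.7 ± 1.32 CPM per kb, and the 2 values lie far apart for their spread. Without the length correction Col18a1 made up 75.9% of all collagen CPM of WT liver, so a sum over liver collagens mostly follows this gene. Col18a1 was also first in WT cerebellum, at 14.7 ± 0.326 CPM per kb. Col9a3 followed at 6.88 ± 1.33 and Col5a1 at 4.83 ± 0.156 CPM per kb. In WT testes the FACIT chains Col22a1 and Col16a1 led with 15.7 ± 0.572 and 15.7 ± 0.269 CPM per kb, which did not differ beyond their spread. The FACIT chain Col20a1 came next there, at 8.90 ± 0.331 CPM per kb. Col1a1, the most abundant chain of many connective tissues, held rank 11 in WT cerebellum at 2.34 ± 0.185 CPM per kb, rank 9 in liver at 2.41 ± 0.437 and rank 6 in testes at 4.89 ± 0.622.

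The coding sequences of the 44 genes share a composition that the choice by name did not use. Taking the longest coding sequence per gene in the GENCODE M21 annotation, glycine codons made up a median of 24.2% of codons and proline codons 16.2%. In 16632 other tested genes the medians were 6.23% and 5.50%. Leucine and serine codons, read by the tRNAs that Thumpd1 serves, were at a median of 6.65% and 4.80% in collagen genes against 9.90% and 7.79% in the others. Leucine codons ranged from 2.94% in Col3a1 to 11.2% in Col20a1. The leucine codon TTA was at a median of 0.370% against 0.497%. The longest unbroken run of triplets that start with a glycine codon had a median of 58.5 triplets and reached 344 in Col3a1. Col1a1 and Col1a2 had runs of 338 and 339, and Col26a1, which has little helix, had 23.

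Among the 44, 35 had a window in the RefSeq promoter table of the mouse build GRCm38.p6 (250 bases before to 50 after the annotated start), in 38 windows. On either strand TATAAA was found in 13.2% of them and in 13.6% of all 32851 windows. CCAAT was found in 34.2% against 37.4%, and GGGCGG (the GC box) in 60.5% against 35.7%. A match is a run of letters and not a binding site. The windows below are shown because Col1a2 is the collagen gene called in all 3 tissues, and because Col4a3 with Col4a4, and Col4a1 with Col4a2, are pairs that start back to back. Capitals mark CCAAT and GGGCGG matches on either strand in Col1a2 (chr6:4505368-4505667, + strand). In Col4a4 (chr1:82586800-82587099, − strand) they mark the 71 bases between its start and that of Col4a3 on the other strand. In Col4a1 (chr8:11312777-11313076, − strand) they mark the 22 bases in which its first exon and that of Col4a2 overlap.
Col1a2: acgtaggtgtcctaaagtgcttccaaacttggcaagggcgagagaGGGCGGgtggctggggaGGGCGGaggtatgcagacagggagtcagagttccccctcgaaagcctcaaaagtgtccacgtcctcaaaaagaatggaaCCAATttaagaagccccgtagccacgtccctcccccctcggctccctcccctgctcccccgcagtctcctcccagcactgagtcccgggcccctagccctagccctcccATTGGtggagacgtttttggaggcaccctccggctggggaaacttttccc
Col4a4: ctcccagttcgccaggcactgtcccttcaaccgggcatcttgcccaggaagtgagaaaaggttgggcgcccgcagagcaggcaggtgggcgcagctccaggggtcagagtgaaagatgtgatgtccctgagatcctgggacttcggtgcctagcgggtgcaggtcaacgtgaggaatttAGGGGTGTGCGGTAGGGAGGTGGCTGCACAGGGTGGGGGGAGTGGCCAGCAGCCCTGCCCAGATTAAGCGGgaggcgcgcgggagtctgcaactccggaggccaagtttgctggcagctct
Col4a1: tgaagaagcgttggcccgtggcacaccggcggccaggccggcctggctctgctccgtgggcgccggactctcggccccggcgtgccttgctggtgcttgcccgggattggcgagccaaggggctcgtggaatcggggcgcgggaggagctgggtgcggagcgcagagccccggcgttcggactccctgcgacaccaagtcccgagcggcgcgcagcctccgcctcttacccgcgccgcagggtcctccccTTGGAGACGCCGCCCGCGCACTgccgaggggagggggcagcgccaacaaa

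In KO liver the type I and type III chains, the main fibril formers, fell. Col1a1 (chr11:94936224-94953042, + strand, mm10) was at 18.4, 17.6, 11.9 and 15.4 CPM in WT 1 to 4 and at 8.42, 7.44, 8.18 and 6.81 CPM in KO 5 to 8. Every KO library lay below every WT library. Its log2 change was -1.03 ± 0.15 (SE), with an adjusted p of 0.0033. Col1a2, the partner chain of type I collagen, was at 19.6, 18.3, 15.1 and 17.3 CPM in WT and 11.1, 10.6, 11.3 and 10.6 in KO, again without overlap. Its change was -0.68 ± 0.09 (adjusted p = 0.00266). Col3a1, which forms type III fibrils together with type I, was at 41.1, 40.5, 33.4 and 32.7 CPM in WT and 22.9, 21.9, 27.3 and 26.2 in KO. Its groups did not overlap either, and the log2 change was -0.54 ± 0.08 (adjusted p = 0.00365). These 3 calls held with each of the 8 libraries left out in turn and in each of the 8 other settings planned. With neighbours summed, their log2 changes were -1.03, -0.67 and -0.54 and their adjusted p values 0.126, 0.191 and 0.254.

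The other fibrillar chains of liver were not called by limma. EdgeR and DESeq2 each called 4 fibrillar chains lower, where limma called 3. Col5a2, a type V chain that sits inside type I fibrils, was at 3.83 to 4.22 CPM in WT and 2.74 to 3.51 in KO (log2 change -0.45 ± 0.14, adjusted p = 0.080). Col5a1 had a log2 change of -0.15 ± 0.12 (adjusted p = 0.479) and Col27a1, a fibrillar chain of cartilage, -0.24 ± 0.06 (adjusted p = 0.0532). Col5a3 was the 1 fibrillar chain of 7 with a positive value, 0.23 ± 0.06 (adjusted p = 0.0532). Of the 7, 6 were negative and 4 had all KO libraries below all WT libraries, as 5.31% of all tested genes did. None had all KO libraries above, as 7.34% did. No fibrillar chain was called higher by limma or edgeR, DESeq2 called 1, and 1 had an unadjusted p under 0.05. Summed fibrillar CPM was 247, 247, 209 and 211 in WT and 201, 192, 211 and 194 in KO, so the sums overlapped.

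Of the 3 type VI chains tested in liver, which form the filaments around cells, 2 fell in KO. Col6a1 was at 7.94, 8.97, 7.93 and 8.19 CPM in WT and 4.76, 4.24, 5.75 and 5.45 in KO, with no overlap. Its log2 change was -0.71 ± 0.11 (adjusted p = 0.00611), and the call held without any 1 library. Col6a2 was at 6.98, 7.25, 6.50 and 7.26 CPM in WT and 3.86, 4.90, 5.38 and 4.76 in KO, also apart. This gave a log2 change of -0.58 ± 0.12 (adjusted p = 0.0182), and the call was lost without WT 2 or without KO 8 (adjusted p up to 0.0633). Col6a3 had a log2 change of -0.29 ± 0.10 and was not called (adjusted p = 0.103). Col16a1, a FACIT chain, was at 3.19 to 3.75 CPM in WT and 2.10 to 2.51 in KO (log2 change -0.61 ± 0.13, adjusted p = 0.0233). Its call was lost without WT 1, WT 2, WT 3 or KO 8 and in 1 fit over 24 libraries (adjusted p = 0.0901).

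Several abundant chains of other classes were not called in liver. Col4a1 and Col4a2, the common basement membrane chains, had log2 changes of -0.07 ± 0.07 and -0.12 ± 0.08 (adjusted p = 0.594 and 0.38). Col18a1 was at 1308 to 1545 CPM in WT and 1315 to 1658 in KO, with a log2 change of 0.08 ± 0.09 (adjusted p = 0.625). Col14a1, a FACIT chain of mesenchymal cells, was at 56.1 to 67.3 CPM in WT and 53.3 to 59.5 in KO (log2 change -0.10 ± 0.05, adjusted p = 0.289). Col4a5, a type IV chain of lower level, was at 1.77 to 2.60 CPM in WT and 2.98 to 3.64 in KO. It was the 1 chain called higher in liver (log2 change 0.61 ± 0.15, adjusted p = 0.0411). Leaving out any 1 library other than KO 6 ended its call, as did a looser or no expression limit.

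**Figure D2:**
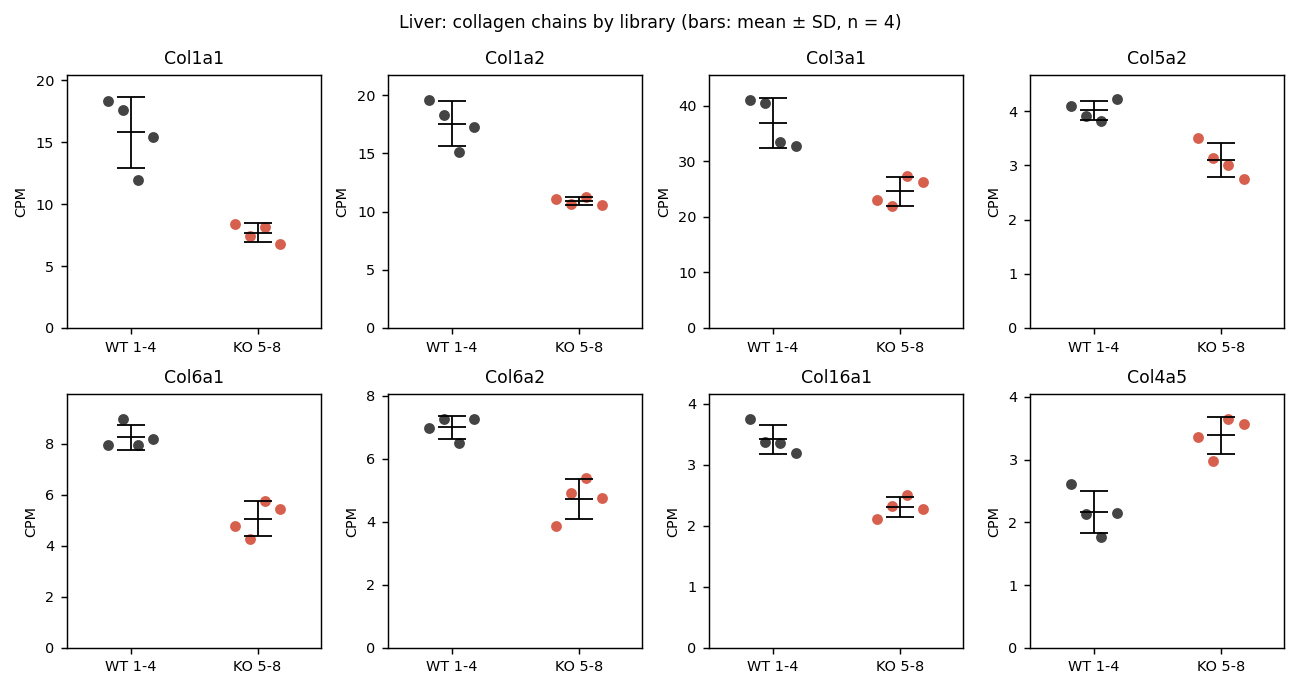
CPM of 8 collagen genes in the 8 liver libraries (vertical axis from 0), with WT 1 to 4 in grey and KO 5 to 8 in red, each point 1 library. Bars give the mean and SD of 4 libraries. Col1a1, Col1a2, Col3a1, Col5a2, Col6a1, Col6a2 and Col16a1 show no overlap between genotypes with KO lower, and Col4a5 none with KO higher.

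Genes that work with collagen were taken from lists of enzymes, processing factors, proteases, receptors, partners and transforming growth factor beta (TGF-beta) signals. In liver 87 of the 112 in the table were tested, of which 4 were called higher and 5 lower, where 2.79% and 3.12% of all tested genes were. DESeq2 called 12 of them lower and 4 higher, and at an unadjusted p under 0.05 there were 22 lower and 7 higher. Their median log2 change was -0.18. P4ha2, a subunit of the prolyl hydroxylase that stabilises the helix, stood at 4.58 ± 0.967 CPM in WT and fell to 2.52 ± 0.422 in KO, by 0.90 on the log2 scale (adjusted p = 0.0152). The elastic fibre genes Eln and Fbln5 fell by 0.78 and 0.82 on the log2 scale, and Tnxb, a tenascin that binds fibrils, fell by 0.55. Ppib, a prolyl isomerase of the collagen folding complex, rose by 0.22 and Tgfb1, a ligand known to induce collagen genes, by 0.34. Loxl4, a cross-linking oxidase, rose by 0.69. The laminin chains Lamc3 and Lama3 went opposite ways, at -1.47 and 0.58.

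Marker genes of collagen-making cells did not move as 1 block in liver. Of the 8 smooth muscle and pericyte markers tested (10 listed), Acta2 (-1.14), Myh11 (-0.93) and Tagln (-0.52) were called lower and Rgs5 (0.42) higher. Their summed level was 61.6 to 65.8 CPM in WT and 55.5 to 62.6 in KO. Of 7 fibroblast markers tested (10 listed), Dpt (-1.16) and Gsn (-0.61) were called lower. The sums were 371 to 583 CPM in WT and 340, 310, 553 and 588 in KO 5 to 8. Dpt and Gsn stood at 2.51 and 23.5 CPM in WT liver, so the sum mostly follows other listed genes. Its overlap does not show unchanged fibroblast RNA. Among 10 stellate cell markers none was called lower by limma, edgeR or DESeq2, with 2 lower at an unadjusted p under 0.05, and Hgf (0.62) was among those called higher. The stellate sums were 300 to 349 CPM in WT and 303 to 415 in KO, below the 816 to 845 CPM of the same genes in WT cerebellum, so the sum is not specific to stellate cells. None of these 3 lists had a gene at 0 in all liver libraries. Their part in the collagen result was not tested. In bulk RNA, fewer cells of a type and less RNA per cell cannot be told apart.

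In KO testes the 6 type IV chains all had positive values, and 4 of them rose. Col4a3 and Col4a4, whose starts lie 71 bases apart as shown above, both rose. Col4a4 was at 54.1, 48.9, 48.9 and 46.8 CPM in WT and 62.6, 65.2, 80.6 and 75.3 in KO. The groups did not overlap, with KO 7 and KO 8 highest. Its log2 change was 0.46 ± 0.08 (adjusted p = 0.00528), and the call held without any 1 library. Col4a3 was at 26.5, 25.4, 25.0 and 23.7 CPM in WT and 29.9, 32.7, 39.1 and 32.7 in KO, also apart (log2 change 0.33 ± 0.08, adjusted p = 0.0138). Its call was lost without WT 4 and in 1 fit over 24 libraries (adjusted p = 0.0592). Col4a3 shares 563 exon bases with C430014B12Rik on the other strand, which had a mean of 0.269 CPM in WT testes. The strand setting of the counting is not given in the sources used here.

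The X-linked pair Col4a5 and Col4a6, which start 1308 bases apart in opposite directions, rose too. Col4a5 was at 10.8, 10.1, 9.23 and 8.92 CPM in WT and 13.1, 14.1, 17.7 and 13.6 in KO (log2 change 0.47 ± 0.10, adjusted p = 0.00883). Col4a6 was at 6.51, 5.65, 4.85 and 4.78 CPM in WT and 6.94, 6.75, 8.52 and 9.27 in KO (log2 change 0.42 ± 0.13, adjusted p = 0.0394). Both genes had KO above WT in every library, and the call on Col4a6 was lost without WT 2, WT 3, WT 4, KO 7 or KO 8. Col4a1 and Col4a2 were not called by limma, at 0.37 ± 0.15 (adjusted p = 0.1) and 0.21 ± 0.14 (adjusted p = 0.292). DESeq2 called 5 of the 6 type IV chains higher, where limma and edgeR called 4. Col4a1 stood at 35.6 and 37.4 CPM in KO 5 and KO 6 but at 56.2 and 59.2 in KO 7 and KO 8, against 31.6 to 37.1 in WT. Under sample quality weights, and without KO 7 and KO 8, Col4a2 turned negative.

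FACIT chains went the other way in testes. All 8 tested had negative values, here and in each other setting tried, and 4 fell. Col19a1, a chain found at basement membrane zones, was at 3.65, 3.66, 3.31 and 4.15 CPM in WT and 2.27, 2.38, 1.94 and 2.08 in KO. The log2 change was -0.88 ± 0.13 (adjusted p = 0.00257). Col9a1, of the cartilage FACIT type IX, was at 4.86, 3.20, 5.11 and 5.09 CPM in WT and 3.13, 3.12, 2.73 and 2.56 in KO (log2 change -0.75 ± 0.17, adjusted p = 0.0141). WT 2 lay close to the KO libraries there. Col14a1 was at 14.4 to 15.1 CPM in WT and 9.61 to 11.8 in KO (log2 change -0.55 ± 0.09, adjusted p = 0.00415), and Col20a1 at 44.3 to 48.2 and 30.7 to 41.3 (-0.41 ± 0.09, adjusted p = 0.0134). All 4 had every KO library below every WT library. In 1 fit over 24 libraries Col9a1 was not called (adjusted p = 0.0661). The call on Col20a1 was lost without WT 3 (adjusted p = 0.0501). The most abundant FACIT chains were not called, with log2 changes of -0.10 ± 0.06 for Col22a1 (adjusted p = 0.22) and -0.12 ± 0.09 for Col16a1 (adjusted p = 0.367). Col9a3 overlaps 234 exon bases of the germ cell gene Tcfl5 on the other strand, which stood at a mean of 331 CPM in WT testes.

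Col26a1, a chain with short helices that is strong in reproductive tissue, was at 11.8, 12.4, 11.8 and 11.8 CPM in WT testes and 10.04, 11.04, 8.49 and 11.04 in KO. It was called lower (log2 change -0.36 ± 0.11, adjusted p = 0.0334), a call lost without KO 7 or any 1 WT library.

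Of the fibrillar chains of testes, Col11a1 rose most. It was at 1.84, 1.74, 0.936 and 1.73 CPM in WT and 3.42, 3.96, 3.90 and 5.50 in KO, with a log2 change of 1.32 ± 0.21 (adjusted p = 0.00378). Col1a2 was at 44.3, 46.5, 44.7 and 44.5 CPM in WT and 49.1, 52.3, 74.7 and 71.3 in KO (log2 change 0.38 ± 0.12, adjusted p = 0.0465). Both had KO above WT in every library, but the call on Col1a2 was lost without KO 7, KO 8 or any 1 WT library, and under 3 of 8 other settings. Col1a1 was at 29.1 to 37.9 CPM in WT, 29.8 and 27.3 in KO 5 and KO 6, and 51.4 and 53.0 in KO 7 and KO 8. It was not called (log2 change 0.20 ± 0.20, adjusted p = 0.471), and neither was Col3a1 (0.26 ± 0.13, adjusted p = 0.169). Summed fibrillar CPM was 229, 257, 227 and 231 in WT and 231, 236, 312 and 339 in KO, so KO 7 and KO 8 carried the higher sum. Without those 2 libraries the median log2 change was -0.20 for the fibrillar chains and -0.12 for the others, and the calls were 4 higher and 7 lower.

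**Figure D3:**
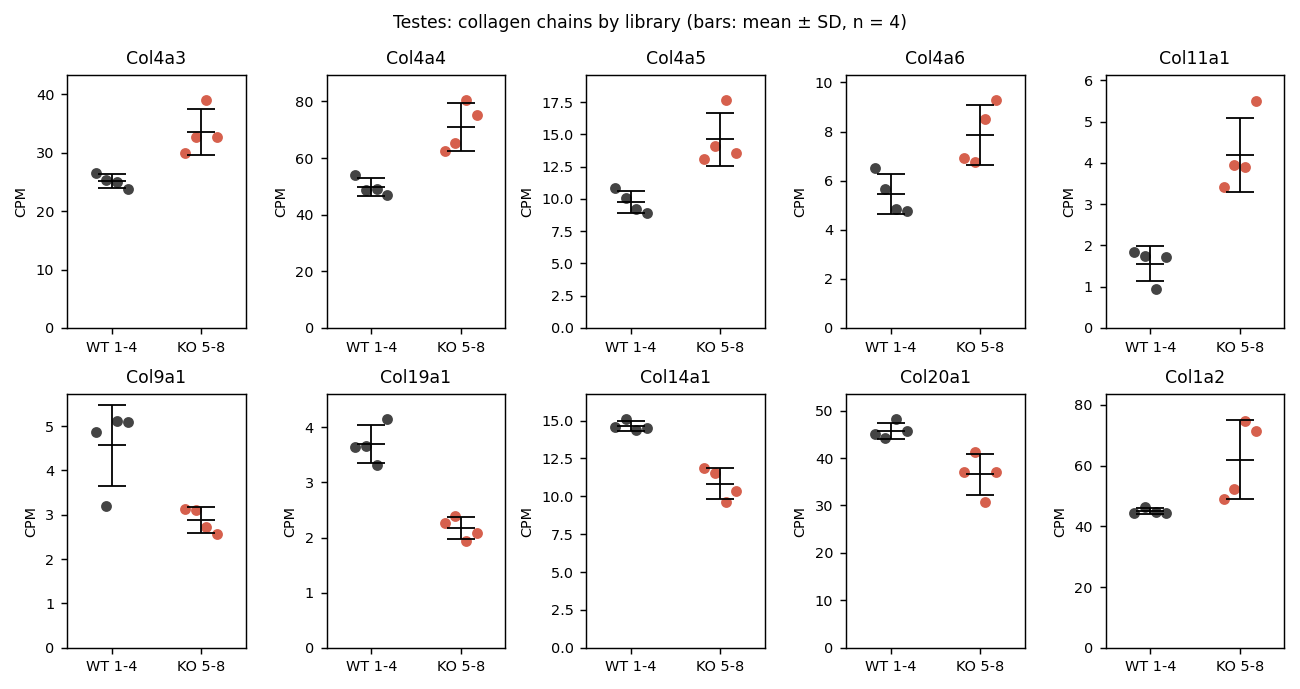
CPM of 10 collagen genes in the 8 testes libraries (vertical axis from 0), with WT 1 to 4 in grey and KO 5 to 8 in red, each point 1 library. Bars give the mean and SD of 4 libraries. Col4a3 to Col4a6, Col11a1 and Col1a2 lie higher and Col9a1, Col19a1, Col14a1 and Col20a1 lower in KO without overlap, and for Col1a2 the points of KO 7 and KO 8 stand at 74.7 and 71.3 CPM.

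In all, 10 of the 41 tested collagen genes of testes had all KO libraries above all WT libraries and 5 had all below. These shares are near the 18.8% and 9.8% of all tested genes and are not a result about the collagen genes as a group. Of the 6 type VI chains of testes none was called by limma or edgeR (DESeq2 called 1, and 1 had an unadjusted p under 0.05). Col6a1, Col6a2 and Col6a3 had log2 changes of 0.21 ± 0.16, 0.09 ± 0.15 and 0.32 ± 0.14 (adjusted p = 0.376, 0.702 and 0.107). Under sample quality weights Col6a1 and Col6a2 were negative. Col18a1 was at 26.9 to 32.7 CPM in WT and 30.4, 33.3, 52.8 and 52.0 in KO (log2 change 0.42 ± 0.17, adjusted p = 0.090). Col5a1 and Col5a2 had log2 changes of -0.13 ± 0.09 and 0.15 ± 0.12 (adjusted p = 0.344 and 0.396).

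The genes that work with collagen were called higher more often than lower in KO testes. Of 100 tested, 23 were called higher and 3 lower, with a median log2 change of 0.22, where 9.74% and 10.7% of all tested genes were called. Their summed level was 2033 to 2206 CPM in WT, 2316 and 2370 in KO 5 and KO 6, and 3242 and 2977 in KO 7 and KO 8. Sparc, a chaperone that binds collagen outside cells, rose by 0.57 from 231 ± 6.10 to 333 ± 58.5 CPM. The folding genes Fkbp10 and Fkbp14 rose by 0.47 and 0.42 and the prolyl hydroxylase P4ha1 by 0.32. Among basement membrane partners the laminin chains Lamb2, Lama1 and Lamc3 rose by 0.59, 0.57 and 0.52. The sum over these partners was 419 to 465 CPM in WT, 467 and 470 in KO 5 and KO 6, and 704 and 726 in KO 7 and KO 8, so the latter pair carried most of the higher sum. The receptors Ddr1 and Itgb1 rose by 0.59 and 0.45, while Itga2 was called lower (-0.72). The protease Mmp14 and the inhibitor Timp3 rose by 0.47 and 0.40, and Timp4 was called lower (-0.39). Pcolce2, an enhancer of propeptide removal, was also called lower (-0.84). On the TGF-beta list Ltbp1, Ccn2 and Tgfb3 rose by 0.60, 0.44 and 0.38.

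Markers of some testis cell types were called and those of others were not. Of 10 Sertoli cell markers, 8 were called higher, among them Fshr (0.83) and Rhox5 (0.69), and their summed level was 1036 to 1212 CPM in WT and 1328 to 1905 in KO. The same 10 genes summed to 1071 to 1409 CPM in WT liver, where Fshr was at 0, so this sum is not specific to Sertoli cells. Of 8 elongating spermatid markers 4 were called lower, among them Prm2 (-0.28), with sums of 12823 to 13450 and 9445 to 11888 CPM. Of 9 fibroblast markers tested (10 listed), 3 were called higher, among them Pdgfra (0.87) and Dcn (0.52), and 1 lower (Pi16, -0.40), with sums of 152 to 179 and 209 to 264 CPM. None of these 3 lists had a gene at 0 in all testes libraries. Of 10 smooth muscle and pericyte markers none was called by limma, while edgeR and DESeq2 each called 2 higher and 2 were higher at an unadjusted p under 0.05, with sums of 141 to 166 CPM in WT and 156 to 216 in KO. The 8 Leydig cell markers went both ways, with Hsd3b1 (0.94) and Hsd17b3 (0.29) called higher and Hsd3b6 (-0.99) lower. Of 7 spermatogonia markers tested (8 listed) Zbtb16 was called higher (0.72). Of 9 endothelial markers tested (10 listed) limma called only Egfl7, lower (-0.30), with overlapping groups. The rest of that list leaned the other way, with a median log2 change of 0.17. At an unadjusted p under 0.05, 4 were higher and 1 lower. EdgeR called 2 higher and DESeq2 3, and neither called any lower. The endothelial sums were 52.4 to 58.3 CPM in WT and 58.3 to 74.5 in KO. The part of these markers in the collagen values was not tested.

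In KO cerebellum some fibrillar chains rose and others fell, beside rises of 1 FACIT and 1 type IV chain. Col12a1, a FACIT chain that binds type I fibrils, had the lowest adjusted p, at 24.7, 25.1, 26.1 and 27.4 CPM in WT and 31.3, 33.0, 31.8 and 32.5 in KO. Its log2 change was 0.30 ± 0.05 (adjusted p = 0.00563), and the call held without any 1 library. Col11a1, a fibrillar chain that sets fibril width, was at 3.77, 2.79, 2.89 and 2.86 CPM in WT and 4.69, 4.89, 4.29 and 4.37 in KO (log2 change 0.53 ± 0.12, adjusted p = 0.0241). Col3a1 was at 6.92, 6.69, 6.66 and 5.61 CPM in WT and 7.53, 9.45, 8.69 and 8.80 in KO (0.38 ± 0.10, adjusted p = 0.0391). The groups did not overlap for any of the 3.

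Col1a2 was at 24.2, 27.3, 22.2 and 22.8 CPM in WT and 27.8, 28.1, 30.8 and 30.1 in KO (log2 change 0.25 ± 0.07, adjusted p = 0.0487). Its partner Col1a1 was at 13.8 to 16.3 and 17.9 to 18.7 CPM and was not called (0.23 ± 0.07, adjusted p = 0.0635). The same held for the basement membrane pair. Col4a2 was at 18.2 to 20.1 CPM in WT and 22.1 to 24.5 in KO and was called (0.27 ± 0.06, adjusted p = 0.0218). Col4a1, at 0.24 ± 0.07, was not called by limma (adjusted p = 0.0645). Of the 6 type IV chains, limma and edgeR called 1 higher and DESeq2 2. A call on 1 chain of a pair and not on the other does not show that they differ.

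The 2 cerebellum chains called lower were fibrillar as well. Col27a1 was at 56.0, 57.0, 54.3 and 48.2 CPM in WT and 49.7, 46.2, 45.9 and 41.8 in KO, where WT 4 lay within the KO range (log2 change -0.24 ± 0.06, adjusted p = 0.0370). Col5a3 was at 10.4, 10.8, 12.9 and 11.2 CPM in WT and 9.10, 7.28, 10.01 and 8.00 in KO, without overlap (-0.41 ± 0.11, adjusted p = 0.0460). Summed fibrillar CPM was 181 ± 7.05 in WT and 181 ± 4.65 in KO, so the sums did not differ beyond the spread between libraries. Col5a1, Col5a2, Col6a1, Col6a2, Col6a3 and Col18a1 were not called, with log2 changes between -0.22 and 0.26. Col25a1, a transmembrane chain of neurons, was at 1.78 to 2.61 CPM in WT and 2.74 to 4.52 in KO and missed the threshold (0.63 ± 0.18, adjusted p = 0.0511). Across classes, 8 collagen genes of cerebellum had every KO library above every WT library and 1 had every one below, as 8.79% and 4.99% of all tested genes did.

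These cerebellum calls were the least firm of the 3 tissues with single libraries left out and in 1 fit over 24 libraries. This ranking did not hold with neighbours summed, where no tissue had a call. At an unadjusted p under 0.05, cerebellum then had 11 higher and 3 lower, liver 1 and 6, and testes 5 and 5. In 1 fit over all 24 libraries limma called none of the 36, with 6 higher and 2 lower at an unadjusted p under 0.05. Of the 7 calls, only that on Col12a1 survived every single library left out. Leaving out WT 1, WT 2, KO 7 and KO 8 left 1 called higher and 1 called lower (Col5a3, -0.60, adjusted p = 0.0494). At an unadjusted p under 0.05 that fit had 12 higher and 3 lower, beside 13 and 4 in the main fit. With fewer libraries per group, its number of calls is not directly comparable with that of the main fit. WT 1, WT 2, KO 7 and KO 8 were left out, after the data had been seen, for their choroid plexus RNA. The 10 choroid plexus markers summed to 1124, 1146, 24.6 and 23.4 CPM in WT 1 to 4 and to 27.8, 29.7, 385 and 384 in KO 5 to 8. The short-chain network genes Col8a1 and Col8a2, known from endothelial basement layers, spread in the same way. Col8a2 was at 12.1, 14.7, 2.78 and 2.70 CPM in WT and 3.22, 2.69, 5.52 and 5.90 in KO. Col8a1 was at 8.10, 9.30, 1.31 and 1.27 CPM in WT and 2.21, 2.38, 3.93 and 4.05 in KO. Neither was called (adjusted p = 0.475 and 0.787).

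**Figure D4:**
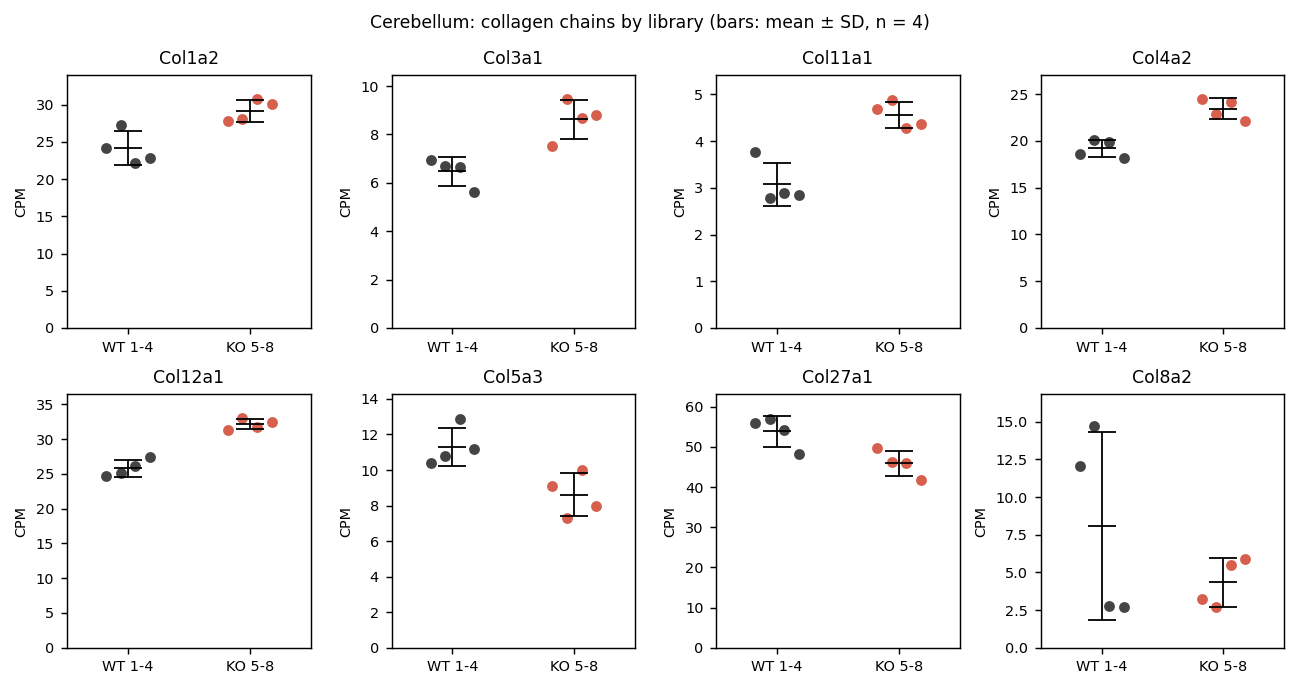
CPM of 8 collagen genes in the 8 cerebellum libraries (vertical axis from 0), with WT 1 to 4 in grey and KO 5 to 8 in red, each point 1 library. Bars give the mean and SD of 4 libraries. The KO points lie above the WT points for Col1a2, Col3a1, Col11a1, Col4a2 and Col12a1 and below them for Col5a3, while WT 4 of Col27a1 lies among the KO points and WT 1 and WT 2 of Col8a2 stand at 12.1 and 14.7 CPM.

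Of 9 meninges markers tested in cerebellum (10 listed) none was called by limma, edgeR or DESeq2, and 1 was lower at an unadjusted p under 0.05. Their sums were 554, 571, 465 and 478 CPM in WT 1 to 4 and 499, 484, 581 and 573 in KO 5 to 8. Within each genotype the higher sums were those of the libraries with more choroid plexus RNA, so the sum does not measure meninges alone. Of 10 endothelial markers none was called by limma or edgeR, DESeq2 called 2 higher, and 3 were higher at an unadjusted p under 0.05. Their sums, 203 to 211 CPM in WT and 217 to 239 in KO, did not overlap. The 8 granule neuron markers summed to 6148 to 6410 CPM in WT and 5686 to 5990 in KO, with 4 called lower. Of 7 tested markers of other brain regions (10 listed), Tcf7l2 was called higher (1.38) and Tfap2b lower (-0.21). Tcf7l2 was at 10.7 ± 0.771 CPM in WT and 30.0 ± 9.97 in KO. The sums overlapped at 470 to 514 CPM in WT and 500.1 to 544 in KO. Tfap2b alone stood at 57.9 ± 2.56 CPM in WT cerebellum. The sum was not shown to be specific to other regions, so its overlap does not compare the dissections. The part of these markers in the collagen values was not tested. Of 7 fibroblast markers tested (10 listed) only Lum was called (-0.62), and the sums were 81.4 to 97.4 and 91.8 to 96.3 CPM. Of 100 genes that work with collagen, 5 were called higher and 4 lower, with a median log2 change of 0.03. These shares are near the 3.93% and 2.51% of all tested genes and are not a result about the list. Fn1, the fibronectin on which collagen assembles, rose by 0.25 and the collagen receptor Ddr2 by 0.34. Plod2, a lysyl hydroxylase, was called lower (-0.41), as were Lum (-0.62) and Fmod (-0.29), proteoglycans that bind fibrils.

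Whether the KO effect itself differed between tissues was tested over all 24 libraries on the 11112 genes, 20 of them collagen genes, that passed the limit in every tissue. Between cerebellum and liver 8 of the 20 differed, 5 of 7 fibrillar and 3 of 13 other chains, while 7.67% of all genes did. Between testes and liver 10 differed, 5 of 7 and 5 of 13, beside 15.9% of all genes. Between testes and cerebellum 4 differed, 1 of 7 and 3 of 13, beside 14.5%. The 3 contrasts share their libraries in pairs.

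For the type I and III chains, liver stood apart from both other tissues. The KO effect on Col1a1 was higher by 1.25 ± 0.29 (log2) in cerebellum than in liver (adjusted p = 0.0087) and by 1.17 ± 0.25 in testes (adjusted p = 0.00321). For Col1a2 the differences were 0.93 ± 0.16 (adjusted p = 0.000955) and 0.98 ± 0.15 (adjusted p = 0.000141). For Col3a1 they were 0.95 ± 0.20 (adjusted p = 0.00484) and 0.74 ± 0.13 (adjusted p = 0.000743), and for Col5a2 0.62 ± 0.18 (adjusted p = 0.0314) and 0.51 ± 0.16 (adjusted p = 0.0363). Between testes and cerebellum, the differences for these 4 genes lay between -0.20 and 0.05 and none passed the threshold.

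Other chains differed by tissue in their own ways. Col5a3 had a lower KO effect in cerebellum than in liver by 0.59 ± 0.16 (adjusted p = 0.0203), the opposite of its type V partner Col5a2. Col27a1 had a higher effect in testes than in liver (0.55 ± 0.15, adjusted p = 0.0146) and in cerebellum (0.53 ± 0.15, adjusted p = 0.0218). The 3 type VI chains Col6a1, Col6a2 and Col6a3 had higher effects in testes than in liver, by 0.84 ± 0.22, 0.61 ± 0.21 and 0.59 ± 0.16 (adjusted p = 0.0122, 0.045 and 0.0122). Of the FACIT chains, Col12a1 and Col16a1 had higher effects in cerebellum than in liver (0.83 ± 0.18 and 0.87 ± 0.27, adjusted p = 0.00542 and 0.0462). Both also had lower effects in testes than in cerebellum (-0.41 ± 0.12 and -0.57 ± 0.19, adjusted p = 0.0221 and 0.0412). Col14a1 and Col20a1 had lower effects in testes than in liver (-0.46 ± 0.13 and -0.80 ± 0.26, adjusted p = 0.0147 and 0.0402). Col4a5 had a higher effect in liver and in testes than in cerebellum (adjusted p = 0.0296 and 0.0455). For Col4a1, Col4a2, Col4a4, Col5a1, Col15a1 and Col18a1 no difference between tissues passed the threshold.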

How the data were processed

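Total RNA from 24 mouse tissue libraries was sequenced as paired ends on an Illumina NovaSeq after a stranded kit with removal of ribosomal RNA. The authors aligned the reads with STAR and deposited expected counts per gene from RSEM, on mm10 with GENCODE M21. Their versions and strand setting are not given in the sources used here, so genes overlapping one on the other strand are uncertain. Expected counts are estimates that split reads among genes and need not be whole (12.3% to 16.6% of nonzero values were not). They were rounded for edgeR and DESeq2 only. Every one of the 24 sample columns was matched to its label.

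CPM is a gene's count scaled to the library's total, and 3 counts were taken as the limit that a count of 0 allows, for counting error only. Each tissue was fitted on its 8 libraries with voom, quantile normalization and limma 3.58.1 in R 4.3.3, on genes with at least 1 CPM in at least 4 libraries. Calls used a Benjamini-Hochberg adjusted p of 0.05. Differences of the KO effect between tissues used TMM factors (edgeR 4.0.16), limma-voom and 3 contrasts over 24 libraries. Exon lengths, overlaps and coding sequences came from GENCODE M21.

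The collagen genes, classes, pathway and marker lists were chosen with earlier results of these data known. Named in each tissue are the called collagen genes and 11 chains of types I, III, IV, V, VI and XVIII. Col8a1, Col8a2, Col10a1, Col14a1, Col15a1, Col16a1, Col22a1, Col25a1, Col27a1, Col4a4, Col5a3 and Col9a3 were also named where not called, after their values were seen. From each list up to 3 called genes with the largest change were taken, and Rgs5 was named after its value was seen. The values of 1 listed gene are not reported here. The alternatives were TMM, edgeR and DESeq2 1.42.0, no filter, a filter of 0.25 CPM, sample quality weights, removal of 6 abundant noncoding RNAs, 1 fit over 24 libraries, a replicate block, and each library left out. Neighbouring libraries summed, cerebellum without 4 libraries and testes without 2 were added after seeing the data. The fits were tested on simulated data.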

Additional observations from a re-analysis of the deposited data

Results flagged for a closer look

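In groups of 4, 1 library stood apart by Dixon's criterion in 7 of 98 groups of a named collagen gene, and chance gives such a gap in about 1 of 20 groups. In cerebellum WT these were Col11a1 in WT 1 (3.77 CPM, others 2.79 to 2.89) and Col4a1 in WT 3 (26.4 CPM). In liver WT it was Col4a2 in WT 2 (36.7 CPM). In testes WT these were Col11a1 in WT 3 (0.936 CPM, others 1.73 to 1.84), Col1a2 in WT 2 (46.5 CPM), Col26a1 in WT 2 (12.4 CPM) and Col9a1 in WT 2 (3.20 CPM).

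The test of the difference itself picked out the following KO effects, given as differences on the log2 scale. For cerebellum minus liver they were Col1a1 1.25, Col1a2 0.93, Col3a1 0.95, Col4a5 -0.62, Col5a2 0.62, Col5a3 -0.59, Col12a1 0.83 and Col16a1 0.87. For testes minus liver they were Col1a1 1.17, Col1a2 0.98, Col3a1 0.74, Col5a2 0.51, Col6a1 0.84, Col6a2 0.61, Col6a3 0.59, Col14a1 -0.46, Col20a1 -0.80 and Col27a1 0.55. For testes minus cerebellum they were Col4a5 0.39, Col12a1 -0.41, Col16a1 -0.57 and Col27a1 0.53.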

How the results depend on the processing

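In cerebellum, 5 collagen genes were called higher in KO. DESeq2 called 8, sample quality weights 9, no expression limit 2 and 1 fit over 24 libraries 0, where limma gave 6 at an unadjusted p under 0.05. Of the 2 called lower, a limit of 0.25 CPM left 1, no limit 0 (3 at an unadjusted p under 0.05) and the fit over 24 libraries 0 (2 at that p). Leaving out 1 library gave 1 to 7 higher and 0 to 1 lower, and a median of the other chains between -0.0048 and 0.21. In liver, 1 called higher became 2 with DESeq2 and 0 with a limit of 0.25 CPM or none (2 at an unadjusted p under 0.05 in both). Leaving out 1 library gave 0 to 1 higher and 4 to 7 lower. In testes, 6 called higher became 11 with DESeq2, and 5 called lower became 9 with quality weights, which also turned the fibrillar median to -0.12. Leaving out 1 library gave 3 to 10 higher and 3 to 6 lower. The cause was not tested.

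Summed neighbours, added after seeing the data, gave 0 higher and 0 lower in every tissue (unadjusted counts above). Removal of WT 1, WT 2, KO 7 and KO 8 from cerebellum, also added then, gave 1 higher and 1 lower (unadjusted counts above). Removal of KO 7 and KO 8 from testes, added then too, gave medians of -0.20 for fibrillar and -0.12 for other chains.

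Single genes changed sign as follows. Col18a1 in cerebellum was at -0.0086 in the fit over 24 libraries, -0.046 without those 4 libraries and -0.020 without KO 7, in a leave-one-out range up to 0.069. Quality weights gave Col1a1 in testes -0.12, Col4a2 in testes -0.0295, Col6a1 in testes -0.020 and Col6a2 in testes -0.13. Without KO 7 and KO 8, Col1a1 was at -0.22, Col3a1 in testes at -0.013, Col4a2 at -0.0883, Col6a1 at -0.12 and Col6a2 at -0.22. Col6a2 was at -0.032 without KO 7, in a range up to 0.22 with 1 library left out.

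Of the differences between tissues, cerebellum against liver fell from 8 to 3 with a limit of 1 CPM in 4 of 24 libraries and to between 4 and 7 with 1 library left out. Testes against liver ranged from 6 to 11 with 1 library left out. Testes against cerebellum fell from 4 to 2 with edgeR, 1 with that limit, and 0 to 4 with 1 library left out. Libraries of the same number in 2 tissues deviated together only weakly (24 correlations between -0.183 and 0.25, 6 over 0.1), and each correlated best with its own number in 9 of 24 cases, so the numbers were not taken as a pairing. With the replicate number as a block, 8, 10 and 2 differences were called, not all on the same genes. Col12a1, Col16a1 and Col4a5 were then not called between testes and cerebellum (adjusted p = 0.152, 0.0782 and 0.108 in limma), nor Col5a2 against liver (0.0526 for cerebellum, 0.0629 for testes). Col18a1 (testes against cerebellum), Col6a3 (cerebellum against liver) and Col4a1 (testes against liver) were then called. No paired analysis was possible within a tissue because WT and KO share no replicate number. Depth was not varied.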
